A study of Mus musculus with 35 samples.

Results

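Liver metastases of pancreatic ductal adenocarcinoma (PDAC) collected on day 14 were profiled by bulk RNA-seq, and the 3 libraries labelled Smad4 on were compared with the 3 libraries labelled Smad4 off, which are 6 of the 35 libraries of the series. The members were the 6 liver day 14 columns of the count table, and every gene of that table entered the comparison. All tumors grew from KC-shSmad4 cells, derived from mouse PDAC of a model in which Ptf1a-Cre acts in the pancreas to switch on, at Rosa26, the tetracycline transactivator rtTA3 linked to the red fluorescent protein mKate2. The study used independent cell lines of this kind, and the labels do not say which line gave which library. The cells also carry a doxycycline (Dox)-inducible, GFP-linked short hairpin RNA against Smad4 at Col1a1. The cells were injected into the spleen of young adult female athymic Foxn1 nu mice, which lack a thymus and so most T cells, the spleen was then removed, and hosts were fed Dox chow. In the Smad4 off arm of the design Dox stays in the food and the hairpin is expressed, whereas in the Smad4 on arm Dox was withdrawn 5 weeks after injection and the tumor was taken 14 days later, and mKate2-positive cells were sorted for RNA in both arms. The titles number the libraries m1 to m3 within each label, taken here as mice 1 to 3.

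SMAD4 is the shared partner through which the receptor-activated SMADs carry TGF-β, activin and BMP signals to DNA. In pancreatic epithelium the pathway is known both for stopping the cell cycle and for switching on matrix and mesenchymal genes, and SMAD4 is among the tumor suppressors most often lost in this cancer. A comparison of tumor cells with and without SMAD4 therefore asks which of these programs follows the gene in the liver.

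The libraries held between 18491168 and 36142368 counts in total, and levels are given on the counts-per-million (CPM) scale of the library total, in the order mouse 1, mouse 2 and mouse 3. The libraries are named off m1 to off m3 and on m1 to on m3, after their label and mouse number. Smad4 itself, on chromosome 18, went against the labels. It read 132, 92.6 and 101 CPM in the libraries labelled off and 15.35, 15.5 and 14.4 CPM in the libraries labelled on, so the 3 libraries labelled on held the lower Smad4 mRNA and the groups did not overlap (log2 fold change, labelled on minus labelled off, −2.93 ± 0.22 SE). Whether the labels are exchanged cannot be told from the files, and if they are, every direction given here turns. Groups are therefore called by their labels throughout, every fold change is labelled on minus labelled off, and a gene described as higher in the libraries labelled on is higher where Smad4 mRNA was lower.

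The tumor markers fixed for PDAC cells (Krt7, Krt19, Muc1 and others, 10 of 10 detected) summed to 15770 to 17160 CPM in the libraries labelled off and 15320 to 17230 CPM in those labelled on. Other cell types left smaller and uneven traces. Stellate cell and fibroblast markers, with Col1a1, Col1a2 and Acta2 among them, summed to 138, 2352 and 650.1 CPM in the libraries labelled off and 222, 209 and 1599 CPM in those labelled on, so off m2 and on m3 stood apart from the rest of their groups. Neutrophil markers summed to 250.7 CPM in on m1 and to between 2.77 and 56.0 CPM in the other 5 libraries. Lymphocyte markers summed to 20.8 CPM in on m1 and to between 2.003 and 5.19 CPM elsewhere. Ptprc, a gene that leukocytes share, held 15.8 CPM of that sum in on m1. Hepatocyte markers summed to between 29.7 and 97.8 CPM and macrophage markers to between 33.6 and 155 CPM over the 6 libraries, with overlap between groups in both, and red blood cell markers to between 7.53 and 57.9 CPM. Endothelial markers summed to 73.6 CPM in off m2 and to between 8.44 and 23.5 CPM elsewhere. Cdh5, the endothelial cadherin, held 66.8 CPM of the sum in off m2, where no other endothelial marker exceeded the 3.76 CPM of Eng. That sum therefore rested on Cdh5 and does not by itself show endothelial cells. No marker of the 8 lists was at 0 in all 6 libraries, but Lrat, which defines resting stellate cells, stayed between 0 and 0.206 CPM, and Vsig4, a marker of Kupffer cells, between 0.0716 and 0.341 CPM. In bulk RNA, fewer cells of a type and less RNA per cell cannot be told apart.

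**Figure D1:**
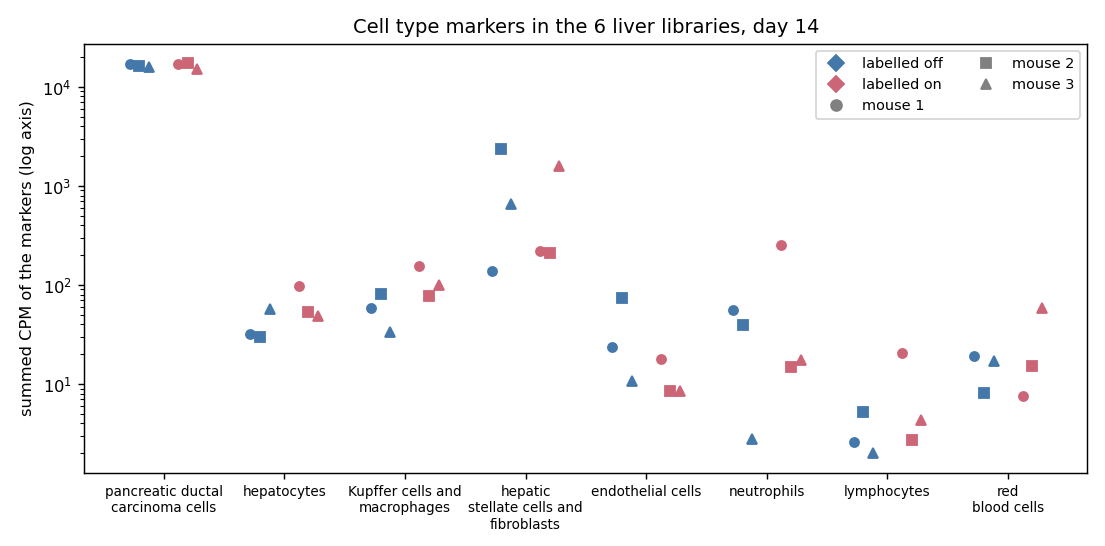
Summed CPM (log axis) of the markers of each cell type in the 6 liver libraries, blue for labelled off and red for labelled on, with a symbol for each mouse number. The PDAC markers lie within 15320 to 17230 CPM in all 6, while the fibroblast markers run from 138 to 2352 CPM within the group labelled off.

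The mitochondrial gene mt-Co3 was counted only in mouse 3 of each label, and these 2 libraries were treated as a second technical set and entered as a covariate. With that covariate, edgeR's quasi-likelihood test on the 6 libraries called 0 of 15916 genes higher (0%) and 0 lower at a fold above 2 and a Benjamini-Hochberg adjusted p under 0.05, and the lowest adjusted p was 0.148. Unadjusted p values under 0.05 were found for 989 genes with higher values (6.21% of those tested) and 1023 with lower values (6.43%). The groups did not overlap for 1429 genes with higher values (8.98%) and 919 with lower values (5.77%). The spread between replicates was wide, with a biological coefficient of variation of 0.362.

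An alternative planned for the same contrast pooled the spread over all 19 day 14 libraries of liver, lung and pancreas, where that coefficient was 0.270, and it called 123 of 16907 genes higher (0.728%) and 248 lower (1.47%) in the liver libraries labelled on. Of 368 of these calls that the 6-library fit also tested, 325 had groups that did not overlap. Over all genes tested the groups did not overlap for 8.98% with higher and 5.77% with lower values. DESeq2 on the 6 libraries called 216 genes higher and 325 lower of 14305 tested. Of the 371 calls of the 19-library fit, 315 were among them in the same direction. All of these rest on the same 6 liver libraries, so neither count is independent support for the calls. With the mouse number as a replicate block in place of the technical set, the 19-library fit called 50 higher and 130 lower. Without the pancreas libraries it called 19 higher and 29 lower. Leaving out 1 liver library at a time gave between 24 genes higher (without on m3) and 581 (without off m3), and between 73 lower (without on m1) and 693 (without off m3). Only 11 genes with higher and 27 with lower values were called in all 9 of these edgeR fits, each of which held the technical set or the replicate block. Of the calls named below, those of Gli2, Muc13, Pax9, Slc29a3, Ptprj, Gstm5, C4b, Adora1, Cldn18, Fbln2, Dusp14, Gng11, Ccbe1, S100a4, Col7a1, Chsy1, Ltbp4, Adam12 and Anln were also made without the pancreas libraries, and the others were lost there, with adjusted p from 0.0511 for Rrm2 to 0.11 for E2f8. "Called" below refers to the 19-library fit unless another is named, and no gene named below passed in the 6-library fit. Unless another fit is named, fold changes and SE within the liver come from the 6-library fit. The adjusted p values beside them come from the 19-library fit, so they do not belong to those fold changes and SE. Contrasts between sites take all of these from the 19-library fit.

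Gli2, a zinc finger effector of Hedgehog signaling that TGF-β can also induce, had the lowest p of the genes with higher values. The 19-library fit called Gli2 higher (adjusted p = 8.06e-06), and all 9 fits did so. Its levels were 0.194, 0.564 and 0.925 CPM in the libraries labelled off and 37.0, 35.4 and 30.9 CPM in those labelled on (log2 fold change 6.01 ± 0.48), so every library labelled on exceeded every library labelled off by more than an order of magnitude. The table places the gene on the minus strand of chromosome 1 (GRCm38), and the 250 bases before its RefSeq start are shown here with those of Muc13, Il11 and Itga5, chosen because their transcripts separated the labels in opposite directions. Capitals mark the letters CAGAC or GTCTG, the core of a SMAD binding element read on both strands, and TGANTCA, the AP-1 element, which is the same on both strands. The windows are chr1:119053620-119053869 on the minus strand for Gli2, chr16:33793787-33794036 on the plus strand for Muc13, chr7:4782858-4783107 on the minus strand for Il11 and chr15:103366792-103367041 on the minus strand for Itga5, all directly upstream of the RefSeq transcript in GRCm38.p6.
Gli2: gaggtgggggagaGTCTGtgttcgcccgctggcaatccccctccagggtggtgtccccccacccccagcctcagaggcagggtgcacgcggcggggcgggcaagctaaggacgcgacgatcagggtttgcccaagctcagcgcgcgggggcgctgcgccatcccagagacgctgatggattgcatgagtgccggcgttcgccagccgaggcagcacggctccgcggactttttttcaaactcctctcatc
Muc13: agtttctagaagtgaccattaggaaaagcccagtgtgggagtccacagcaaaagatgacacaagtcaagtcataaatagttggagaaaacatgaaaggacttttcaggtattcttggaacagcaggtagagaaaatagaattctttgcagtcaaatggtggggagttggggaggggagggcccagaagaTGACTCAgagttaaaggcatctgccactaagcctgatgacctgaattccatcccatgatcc
Il11: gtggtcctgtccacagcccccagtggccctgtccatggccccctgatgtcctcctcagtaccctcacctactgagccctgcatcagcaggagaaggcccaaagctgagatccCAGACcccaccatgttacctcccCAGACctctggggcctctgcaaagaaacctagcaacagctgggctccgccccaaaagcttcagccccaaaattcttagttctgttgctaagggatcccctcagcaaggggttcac
Itga5: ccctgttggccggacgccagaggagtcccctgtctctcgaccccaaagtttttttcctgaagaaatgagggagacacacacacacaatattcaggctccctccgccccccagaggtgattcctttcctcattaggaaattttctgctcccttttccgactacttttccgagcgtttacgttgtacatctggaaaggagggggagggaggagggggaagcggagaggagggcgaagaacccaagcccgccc

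The Gli2 window held 1 CAGAC or GTCTG match, Il11 held 2, and Muc13 and Itga5 held 0. There was 1 TGANTCA match in the Muc13 window and 0 in the others. Of all 32851 RefSeq windows of this length, 42.2% held CAGAC or GTCTG and 6.75% held TGANTCA, so a match of the first kind is common.

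The Hedgehog list as a whole did not share the direction of Gli2, though Ptch1 did. Of 14 members tested, 7 had positive and 7 negative fold changes (median −0.05, against −0.01 over all genes tested), and Gli2 was the 1 member called, where 0.728% of all genes were called higher. Without off m2, off m3 or on m3 that median was 0.33, 0.45 or 0.47, and without off m1 it was −0.22. Ptch1, the Hedgehog receptor that is also a target of the pathway, read 22.2, 28.9 and 28.5 CPM labelled off and 46.8, 51.6 and 36.4 CPM labelled on (0.69 ± 0.17), an adjusted p of 0.0303 with a fold under 2. Dhh, a ligand, had a negative value (−0.69 ± 0.24) and was not called, nor was Gli3 (−1.54 ± 0.66), a family member that can act as repressor. With the replicate block Gli3 was called lower (−1.61, adjusted p = 0.0236).

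All 11 other genes with the lowest p among the higher ones were called. Muc13, a membrane mucin of gut and pancreatic epithelium, read 138, 173 and 203 CPM labelled off and 1461, 662 and 1227 CPM labelled on (2.64 ± 0.33, adjusted p = 0.00693). Pax9, a transcription factor of foregut endoderm, read 27.6, 23.8 and 28.4 CPM against 94.5, 115 and 76.2 CPM (1.75 ± 0.20, adjusted p = 0.000142). Groups that do not overlap were a condition for entering this set and its counterpart on the lower side, so their separation is a description of the choice and not a result.

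Slc29a3, an equilibrative nucleoside transporter, read 11.4, 14.3 and 20.9 CPM labelled off and 91.9, 58.15 and 68.6 CPM labelled on (2.20 ± 0.25). Ptprj, a receptor tyrosine phosphatase, read 30.5, 34.9 and 36.9 CPM against 100.5, 81.4 and 73.7 CPM (1.25 ± 0.15). Gstm5, a glutathione transferase, read 13.8, 25.05 and 14.0 CPM against 81.7, 58.2 and 66.1 CPM (1.92 ± 0.25). These 3 genes, Pax9, Muc13 and Gli2 were called in all 9 fits.

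Slc44a4, a choline-like transporter, read 39.9, 55.3 and 57.1 CPM labelled off against 138, 128 and 129.7 CPM labelled on (1.32 ± 0.15). C4b, a complement component, read 36.8, 56.8 and 58.7 CPM against 133, 120.3 and 218 CPM (1.53 ± 0.20), and Ppbp, a platelet chemokine, read 1.96, 1.58 and 2.26 CPM against 15.55, 9.67 and 10.3 CPM (2.53 ± 0.34). Shisa2 (1.65 ± 0.19), Adora1, an adenosine receptor (1.80 ± 0.22), and Hkdc1, a hexokinase domain protein (1.63 ± 0.21), completed the set. The call of Slc44a4 was lost without off m1 or on m3 (adjusted p 0.0671 and 0.0875). That of Shisa2 was lost without off m1, off m2, on m1 or on m3 (adjusted p 0.108, 0.0702, 0.0651 and 0.139). That of Hkdc1 was lost without off m1, off m2, on m1 or on m3 (adjusted p 0.0859, 0.0656, 0.0703 and 0.12). The calls of Adora1 and C4b were lost without on m3 (adjusted p = 0.0553 and 0.0604), and that of Ppbp was lost without on m1 (adjusted p = 0.0646) and with the replicate block (adjusted p = 0.0644).

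**Figure D2:**
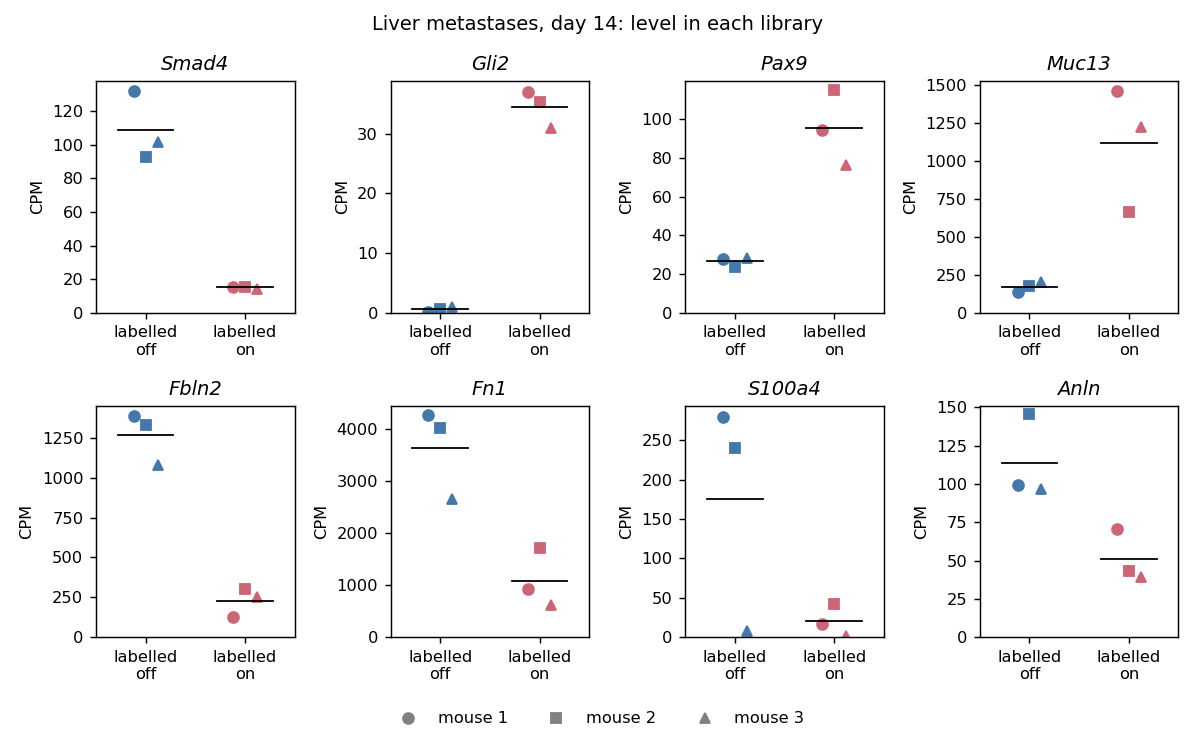
Level in CPM of 8 genes in each liver library of day 14, labelled off in blue and labelled on in red, with a symbol for each mouse number and a line at the group mean. Smad4 lies at 92.6 to 132 CPM in the libraries labelled off and at 14.4 to 15.5 CPM in those labelled on, Gli2, Pax9 and Muc13 are higher where Smad4 is lower, and S100a4 is low in mouse 3 of both labels.

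Among the genes with the lowest p on the lower side, Fbln2, which encodes the matrix glycoprotein fibulin 2, carried the most reads. It read 1387, 1332 and 1077 CPM in the libraries labelled off and 129, 305 and 249.7 CPM in those labelled on (−2.54 ± 0.38, adjusted p = 0.00693), and it was called in all 9 fits. Dusp14, a dual-specificity phosphatase, read 25.8, 22.95 and 12.2 CPM against 6.71, 7.63 and 3.41 CPM (−1.86 ± 0.20, adjusted p = 0.00816) and was likewise called in all 9.

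Rrm2, the small subunit of ribonucleotide reductase, read 111, 118 and 91.3 CPM against 49.9, 56.9 and 43.2 CPM (−1.16 ± 0.14). Gng11, a G protein gamma subunit, read 7.53, 5.00 and 7.96 CPM against 1.39, 0.967 and 0.811 CPM (−2.77 ± 0.41). Gfod1 (−1.54 ± 0.23) and Pkn3, a protein kinase N (−1.22 ± 0.17), were called too. The call of Gng11 was lost without on m3 (adjusted p = 0.0522), and that of Pkn3 was lost without off m1, off m2, on m1 or on m3 (adjusted p 0.0891, 0.0792, 0.0947 and 0.111).

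The remaining 5 genes of this group were not called, 4 of them because the fold lay under 2. Nid1, a basement membrane protein, read 311, 306 and 167 CPM labelled off and 109, 114 and 83.1 CPM labelled on (−1.39 ± 0.18, adjusted p = 0.0838). Pdlim7 (−0.98 ± 0.12), Ppp1r18 (−0.98 ± 0.15), Myo5a, an actin motor (−0.92 ± 0.14), and Smim3 (−0.90 ± 0.13) had adjusted p values of 0.0146, 0.0336, 0.0122 and 0.0412.

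The TGF-β pathway itself was examined by role. Among ligands and activators, 14 of 16 genes had negative values (median −0.50) and 3 were called lower, where 1.47% of all genes were. Inhba, the activin A subunit, read 338, 83.6 and 60.4 CPM labelled off and 18.6, 19.2 and 17.1 CPM labelled on (−3.06 ± 0.70), a tight low group against one spread mainly by mouse 1. The call of Inhba was lost without off m1, on m1 or on m3 (adjusted p 0.108, 0.0988 and 0.0927) and with the replicate block (adjusted p = 0.091). Ltbp1, which tethers latent TGF-β to matrix, read 468, 259 and 180.4 CPM against 78.0, 143 and 69.8 CPM (−1.69 ± 0.37, adjusted p = 0.0146). The call of Ltbp1 was lost without on m1 or on m3 (adjusted p 0.0618 and 0.054). Its relative Ltbp4 averaged 483 ± 114 (SD, n = 3) against 189 ± 70.9 CPM (−1.49 ± 0.34, adjusted p = 0.0108) and was called in all 9 fits.

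Among receptors and SMADs other than Smad4, 9 of 14 values were negative (median −0.15) and 0 were called in the 19-library fit. DESeq2 on the 6 libraries also called 0. Unadjusted p was under 0.05 for 1 higher and 4 lower members, where 6.21% and 6.43% of all genes were. The median was −0.06 without off m3 and −0.05 without on m3. Bmpr2, the BMP type II receptor, read 93.1, 90.6 and 95.2 CPM labelled off and 67.5, 79.2 and 59.9 CPM labelled on (−0.51 ± 0.15), and Acvr1b, the activin type I receptor, read 35.4, 40.4 and 71.3 CPM against 92.9, 64.3 and 72.1 CPM (0.64 ± 0.25). Of the pathway's feedback genes, 10 of 14 were negative (median −0.36, and −0.58 without on m1) and 1 was called lower, where 1.47% of all genes were. That gene, the activin antagonist Fstl3, averaged 8.66 ± 3.17 against 2.6 ± 0.8 CPM (SD, n = 3, adjusted p = 0.0177). The call of Fstl3 was lost without off m1, on m1 or on m3 (adjusted p 0.0528, 0.0755 and 0.0722) and with the replicate block (adjusted p = 0.0542). The inhibitory Smad7 read 95.6, 128 and 128 CPM against 69.9, 53.6 and 71.7 CPM (−0.92 ± 0.16), and Pmepa1, which binds receptor SMADs, read 163, 204 and 215 CPM against 121, 133 and 90.4 CPM (−0.84 ± 0.18), both without overlap and with adjusted p values of 0.023 and 0.0405 at a fold under 2.

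The fibrogenic genes that the study followed had negative values in 7 of 7 cases (median −1.75), and 3 were called lower, where 1.47% of all genes were. This list was chosen by the study on samples that include these, so its direction is not independent evidence. Ccbe1, a secreted matrix protein of lymphatic growth, read 58.8, 15.0 and 11.4 CPM labelled off and 1.68, 1.36 and 1.35 CPM labelled on (−4.24 ± 0.72, adjusted p = 0.0113), and it was called in all 9 fits. Has2, the main hyaluronan synthase, read 29.2, 10.0 and 11.2 CPM against 2.39, 0.752 and 1.46 CPM (−3.52 ± 0.67, adjusted p = 0.0181). In both, every library labelled off lay severalfold above every library labelled on.

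Itga5, the fibronectin receptor subunit, read 266, 116 and 85.0 CPM labelled off against 41.8, 57.0 and 40.8 CPM labelled on (−1.75 ± 0.44, adjusted p = 0.0185). The call of Itga5 was lost without on m1 or on m3 (adjusted p 0.0779 and 0.0696) and with the replicate block (adjusted p = 0.0575), and that of Has2 was lost without off m1 or on m3 (adjusted p 0.0562 and 0.0703). Il11, a cytokine that drives fibroblast activation, read 30.6, 3.69 and 10.5 CPM against 2.96, 1.18 and 2.16 CPM (−2.92 ± 0.89, adjusted p = 0.0548), with no overlap but a wide group labelled off.

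Col6a1, a collagen VI chain, read 249, 646 and 243 CPM labelled off and 61.1, 198 and 269 CPM labelled on (−1.21 ± 0.68), and Wisp1, a CCN family protein, read 3.32, 26.5 and 19.2 CPM against 1.08, 4.19 and 18.7 CPM (−1.72 ± 1.01). Both overlapped, and both were highest within their label in off m2 and in on m3, the libraries with the most fibroblast marker RNA, and the part of that RNA in their values was not tested. DESeq2 on the 6 libraries called 5 of the 7 genes lower, where it called 325 of 14305 genes tested lower.

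**Figure D3:**
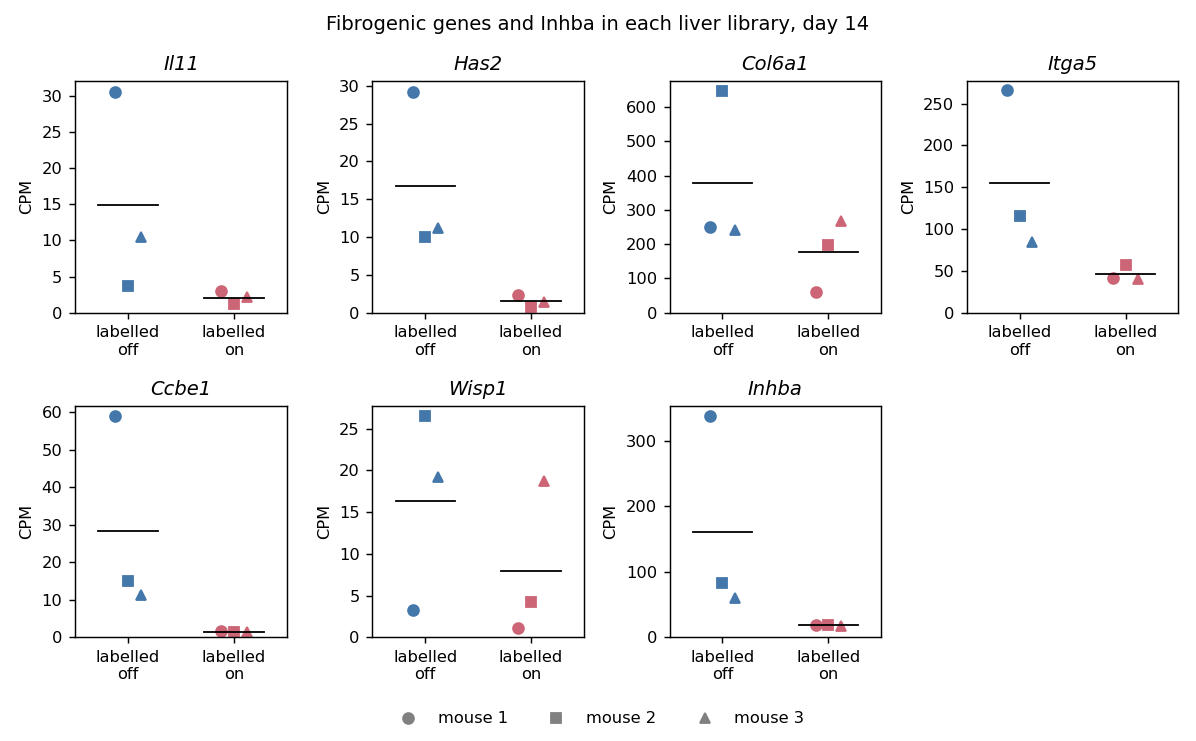
Level in CPM of 6 fibrogenic genes and of Inhba in each liver library of day 14, labelled off in blue and labelled on in red, with a symbol for each mouse number and a line at the group mean. Has2 and Ccbe1 separate fully, with 10.0 CPM and 11.4 CPM as the lowest values labelled off, whereas the groups of Col6a1 and of Wisp1 overlap.

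The growth arrest list, for the other TGF-β program, gave no call. It joins cyclin-dependent kinase inhibitors with Myc and the Id genes, which do not all act to arrest growth. A shared sign over its members therefore has no common meaning for arrest. All 9 members tested had negative values (median −0.29), 0 were called in the 19-library fit or by DESeq2 on the 6 libraries, and 1 had an unadjusted p under 0.05 (6.43% of all genes), the INK4 inhibitor Cdkn2d, at 27.6, 26.8 and 28.6 CPM labelled off against 19.3, 15.4 and 16.9 CPM labelled on (−0.76 ± 0.16, adjusted p = 0.0369 at a fold under 2). Cdkn1c, which encodes the cyclin-dependent kinase inhibitor p57, read 9.16, 4.21 and 3.19 CPM against 1.14, 3.04 and 2.54 CPM (−1.34 ± 0.63, adjusted p = 0.104), groups that did not overlap but stood 3.19 against 3.04 CPM at their nearest. Cdkn1a, encoding p21, read 338, 244 and 225 CPM against 273, 326 and 158 CPM (−0.22 ± 0.23), Cdkn1b, encoding p27, gave −0.29 ± 0.17, Cdkn2c −0.26 ± 0.24 and Myc −0.43 ± 0.21, all with overlap.

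The Id genes, which encode inhibitors of differentiation that BMP and TGF-β regulate, differed between mice of a label as much as between labels. Id1 read 43.5, 108 and 219 CPM labelled off and 116, 64.0 and 142 CPM labelled on (−0.09 ± 0.39), Id2 gave −0.14 ± 0.24 and Id3 −0.85 ± 0.59. Cdkn2a, Cdkn2b and Id4 fell under the filter on low counts. The fold changes of Cdkn2c, Id1, Id2 and Id3 turned positive when single libraries were left out.

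Mesenchymal and matrix genes had mostly negative values. Of the mesenchymal list, 11 of 12 were negative (median −1.59) and 5 were called lower, where 1.47% of all genes were, namely Fn1, S100a4, Vim, Cdh2 and Loxl2. Without off m2, the library labelled off with the most fibroblast marker RNA, the median was −0.12, and with the replicate block it was −0.97. Fn1, fibronectin, read 4260.0, 4015 and 2647 CPM labelled off and 934, 1706 and 614 CPM labelled on (−1.87 ± 0.30, adjusted p = 0.018). The call of Fn1 was lost without on m1 or on m3 (adjusted p 0.0755 and 0.0756). S100a4 read 279.7, 239.8 and 7.96 CPM against 17.0, 42.1 and 2.11 CPM (−2.88 ± 0.47, adjusted p = 0.0108). Mouse 3 was low under both labels, so that the groups overlapped. S100a4 was called in all 9 fits, each of which held the technical set or the replicate block. Without the set, edgeR's fit of the 6 libraries gave S100a4 −3.21 ± 1.39 (adjusted p = 0.519, against 0.247 with the set in that fit). Within each technical set the libraries labelled on were lower, with S100a4 differences of −3.25 on the log2 scale in mice 1 and 2 and −1.70 in mouse 3. Vim, the mesenchymal filament gene, averaged 4965 ± 2783 CPM labelled off and 1687 ± 961 CPM labelled on (SD, n = 3, adjusted p = 0.0453). The call of Vim was lost without off m1, off m2, on m1 or on m3 (adjusted p 0.194, 0.0522, 0.159 and 0.143) and with the replicate block (adjusted p = 0.0864). Cdh2, the neural cadherin, averaged 76.6 ± 16.2 CPM labelled off and 40.0 ± 9.04 CPM labelled on (SD, n = 3, adjusted p = 0.0233 and a fold just above 2 in the 19-library fit). The call of Cdh2 was lost without off m1, on m1 or on m3 (adjusted p 0.065, 0.0947 and 0.0837). Loxl2, a collagen crosslinking enzyme, gave −1.63 ± 0.60 (adjusted p = 0.0444). The call of Loxl2 was lost without off m1, off m2, on m1 or on m3 (adjusted p 0.143, 0.0787, 0.113 and 0.075) and with the replicate block (adjusted p = 0.132).

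EMT transcription factors followed with 9 of 10 negative (median −1.23) and 1 called lower, where 1.47% of all genes were. Zeb2, a repressor of epithelial genes, was the member called and read 49.5, 29.9 and 26.6 CPM labelled off against 15.9, 22.8 and 12.6 CPM labelled on (−1.14 ± 0.29, adjusted p = 0.0376). The call of Zeb2 was lost without off m1, on m1 or on m3 (adjusted p 0.144, 0.128 and 0.126) and with the replicate block (adjusted p = 0.0629). The related Zeb1 read 55.7, 63.4 and 29.3 CPM against 24.7, 30.1 and 27.1 CPM (−0.86 ± 0.26, adjusted p = 0.021 at a fold under 2), with overlap. Without off m1 the median of the list was −0.82.

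Of 19 collagen genes tested, 17 were negative (median −0.84), but only Col7a1 was called lower, where 1.47% of all genes were. It encodes the anchoring fibril collagen of epithelia and read 169, 154 and 122 CPM labelled off and 23.05, 27.4 and 55.2 CPM labelled on (−2.26 ± 0.38, adjusted p = 0.0113, called in all 9 fits). Col18a1, a basement membrane collagen, read 1170.0, 1295 and 1520.0 CPM against 747, 759 and 819 CPM (−0.84 ± 0.17, adjusted p = 0.0875). The collagen median rested on off m2, the library with 2352 CPM of fibroblast markers. Without it that median was 0.28, the median of the proteoglycan list 0.07 and the median of the fibroblast markers themselves 0.75, against −0.56 with it. The part of fibroblast RNA in these values was not tested.

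Among proteoglycans and their enzymes, 18 of 28 were negative (median −0.24), and Chsy1, Gpc6 and Gpc1 were called lower, where 1.47% of all genes were. With the replicate block the median was 0.0025. Chsy1, a chondroitin synthase, read 58.9, 52.5 and 38.6 CPM against 18.2, 24.2 and 26.6 CPM (−1.19 ± 0.27, adjusted p = 0.00816, called in all 9 fits), and Gpc6, a glypican, read 8.58, 15.8 and 6.78 CPM against 1.65, 3.87 and 2.87 CPM (−1.90 ± 0.47, adjusted p = 0.0192). The call of Gpc6 was lost without on m1 (adjusted p = 0.0609). Gpc1, another glypican, gave −1.50 ± 0.44 (adjusted p = 0.0471). The call of Gpc1 was lost without off m1, off m2, on m1 or on m3 (adjusted p 0.141, 0.0721, 0.14 and 0.145) and with the replicate block (adjusted p = 0.0764). Hs3st1, a heparan sulfate sulfotransferase, went the other way (0.90 ± 0.36) and was not called. Of 16 integrins, 11 were negative (median −0.29, and −0.17 without on m2), and Itgb3 and Itga5 were called lower, where 1.47% of all genes were. Itgb3 read 17.5, 17.4 and 29.2 CPM labelled off against 3.69, 7.12 and 6.00 CPM labelled on (−1.95 ± 0.31, adjusted p = 0.0361). The call of Itgb3 was lost without off m1, off m2, on m1 or on m3 (adjusted p 0.0836, 0.0543, 0.133 and 0.117). Itga7 (0.99 ± 0.38) and Itga11 (2.14 ± 0.78) had positive values without a call.

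Of the laminins, 8 of 9 were negative (median −0.58, and −0.38 without on m1), and Lamb1 was called lower, where 1.47% of all genes were. Lamb1 read 450.0, 415 and 267 CPM labelled off against 125, 182 and 147 CPM labelled on (−1.36 ± 0.26, adjusted p = 0.0168). The call of Lamb1 was lost without on m1 or on m3 (adjusted p 0.0703 and 0.054). Matrix proteases and their inhibitors were negative in 14 of 20 cases (median −0.41), with Adam12, Timp1 and Timp2 called lower, where 1.47% of all genes were. The median was −0.04 without off m2 and −0.79 without on m1. Adam12, a membrane protease, read 35.6, 47.2 and 26.0 CPM labelled off and 3.38, 8.99 and 7.95 CPM labelled on (−2.47 ± 0.45, adjusted p = 0.00693, called in all 9 fits). Timp1, a metalloproteinase inhibitor, read 253, 125 and 59.6 CPM against 34.9, 44.2 and 21.9 CPM (−2.09 ± 0.39, adjusted p = 0.0173). The call of Timp1 was lost without on m1 or on m3 (adjusted p 0.071 and 0.0666) and with the replicate block (adjusted p = 0.0549). Timp2, a related inhibitor, averaged 816.5 ± 232.5 CPM labelled off and 424 ± 107.5 CPM labelled on (SD, n = 3, adjusted p = 0.0173), and its call was lost without off m1, on m1 or on m3 (adjusted p 0.0421 with a fold under 2, 0.0755 and 0.0554) and with the replicate block (adjusted p = 0.0588). Mmp9, a gelatinase that neutrophils also carry, read 2.08, 2.18 and 1.54 CPM against 26.6, 2.79 and 13.6 CPM (2.82 ± 0.80, adjusted p = 0.0608), highest in on m1, the library with the highest neutrophil markers, whose part in the value was not tested.

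**Figure D4:**
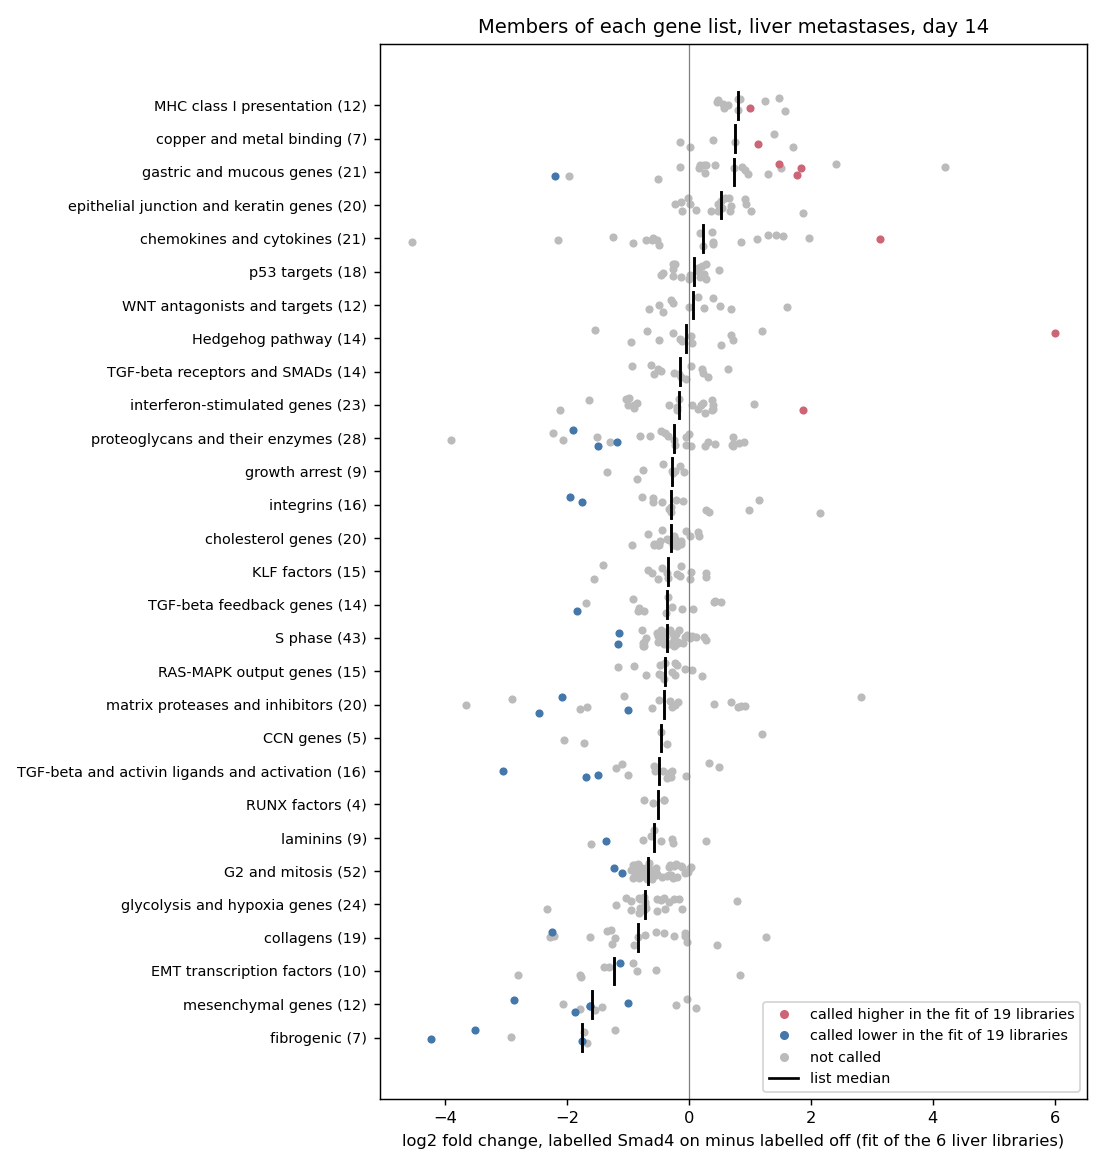
Log2 fold change (labelled Smad4 on minus labelled off, fit of the 6 liver libraries) of every tested member of 29 gene lists, ordered by list median (black line), with the number tested in brackets. Red and blue points are members called higher and lower in the 19-library fit; the fibrogenic list has the lowest median (−1.75) and the MHC class I list the highest (0.81).

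Epithelial genes had mostly positive values. Of 20 junction and keratin genes, 16 were positive (median 0.52) and 0 were called in the 19-library fit or by DESeq2 on the 6 libraries, with unadjusted p under 0.05 for 2 of the 20 higher, where 6.21% of all genes were, and 0 lower. The median was 0.28 without off m1, 0.17 without on m1, 0.87 without off m3 and 0.88 without on m3. Tjp3, a tight junction protein, read 61.4, 114 and 184 CPM labelled off and 266, 164 and 284 CPM labelled on (1.02 ± 0.29), and Cldn7, a claudin, read 91.0, 155 and 118 CPM against 378, 176 and 174 CPM (0.91 ± 0.34). Krt19, the ductal keratin, read 3572, 3514 and 3659 CPM against 3172, 3042 and 3422 CPM (−0.23 ± 0.20).

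Gastric and mucous genes were positive in 17 of 21 cases (median 0.74, and 0.44 or 0.47 without off m1 or on m1). Muc1, Tff3 and Cldn18 were called higher and Ctse lower, where 0.728% and 1.47% of all genes were. Muc1, a membrane mucin, read 263, 439 and 242 CPM labelled off and 1134, 788 and 774 CPM labelled on (1.47 ± 0.25, adjusted p = 0.0185). The call of Muc1 was lost without off m1, on m1 or on m3 (adjusted p 0.0696, 0.0651 and 0.0851) and with the replicate block (adjusted p = 0.069). Tff3, a trefoil peptide of mucous cells, read 54.0, 86.6 and 116 CPM against 375, 177 and 342 CPM (1.78 ± 0.32, adjusted p = 0.0491), and neither gene overlapped between labels. The call of Tff3 was lost without off m1, off m2, on m1 or on m3 (adjusted p 0.194, 0.114, 0.131 and 0.211). Cldn18, a gastric claudin, gave 1.84 ± 0.38 (adjusted p = 0.0172), and its call was lost without on m3 (adjusted p = 0.0705) and with the replicate block (adjusted p = 0.0687). The members of this list did not share a direction, since Ctse, the gastric protease cathepsin E, read 343, 317 and 82.9 CPM against 60.0, 118 and 13.5 CPM (−2.20 ± 0.31, adjusted p = 0.023), low in mouse 3 of both labels. The call of Ctse was lost without off m1, on m1 or on m3 (adjusted p 0.0635, 0.0938 and 0.0836). The gel-forming mucin Muc5ac read 2.49, 1.20 and 4.42 CPM against 0.711, 0.788 and 0.487 CPM (−1.98 ± 0.58, adjusted p = 0.103).

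Cell cycle genes had mostly small negative values. Of 52 genes of G2 and mitosis, 50 were negative (median −0.68, and −0.37 without off m2). Unadjusted p was under 0.05 for 16 of them, all lower (6.43% of all genes), and Anln and Bub1 were called lower (1.47% of all genes). Anln, a scaffold of the cleavage furrow, read 99.4, 146 and 96.8 CPM labelled off and 70.6, 43.4 and 39.6 CPM labelled on (−1.23 ± 0.22, adjusted p = 0.0108, called in all 9 fits). Bub1, a spindle checkpoint kinase, read 22.6, 36.2 and 22.2 CPM against 16.5, 13.0 and 10.2 CPM (−1.09 ± 0.20, adjusted p = 0.0172). The call of Bub1 was lost without off m2 or on m3 (adjusted p 0.0505 and 0.0722) and with the replicate block (adjusted p = 0.0556). Of 43 S phase genes, 38 were negative (median −0.37), with Rrm2 and E2f8 called lower, where 1.47% of all genes were. That median was −0.63 without off m1 and 0.02 without off m2. E2f8, a repressor of the E2F family, gave −1.14 ± 0.31 (adjusted p = 0.0479), and its call was lost without off m1, off m2, on m1, on m2 or on m3 (adjusted p 0.155, 0.103, 0.0651, 0.101 and 0.139). Rrm1, the large subunit of ribonucleotide reductase, read 136, 169.5 and 121 CPM against 83.0, 104 and 75.3 CPM (−0.76 ± 0.15, adjusted p = 0.0153 at a fold under 2). Genes of a cycle phase vary together, so they are not independent observations.

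Glycolysis and hypoxia genes were negative in 23 of 24 cases (median −0.72) with 0 calls in the 19-library fit or by DESeq2 on the 6 libraries. Of the 24, 2 had an unadjusted p under 0.05, both lower, where 6.43% of all genes were. P4ha1, a collagen prolyl hydroxylase induced by low oxygen, read 347, 168 and 80.0 CPM labelled off and 70.1, 143 and 47.7 CPM labelled on (−1.19 ± 0.43), and Car9, a carbonic anhydrase of hypoxic cells, read 174, 137 and 81.3 CPM against 82.6, 67.5 and 77.8 CPM (−0.81 ± 0.29). Mouse 1 labelled off held the highest value of both genes, and without it the list median was −0.14, and without on m1 −0.47.

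Antigen presentation by MHC class I showed positive values throughout. All 12 members tested had positive values, from 0.46 to 1.57 (median 0.81). Of these, 9 had an unadjusted p under 0.05 (6.21% of all genes), 8 had groups that did not overlap (8.98% of all genes), and 1 was called higher (0.728% of all genes). H2-K1, a class I heavy chain, was called higher at 519.5 ± 63.5 CPM labelled off and 1097 ± 224 CPM labelled on (SD, n = 3, adjusted p = 0.0298 in the 19-library fit, where its fold exceeded 2). The call of H2-K1 was lost without off m1, off m2, on m1 or on m3 (adjusted p 0.0552, 0.0777, 0.0958 and 0.126) and with the replicate block (adjusted p = 0.0491 with a fold under 2). Psmb8, an immunoproteasome subunit, read 12.6, 12.9 and 20.0 CPM against 41.3, 25.4 and 46.0 CPM (1.25 ± 0.21, adjusted p = 0.0573), and Psmb9, another, read 5.75, 5.98 and 9.61 CPM against 26.8, 12.03 and 22.0 CPM (1.48 ± 0.33, adjusted p = 0.0667). Class I genes are expressed in leukocytes too, whose neutrophil and lymphocyte markers were highest in on m1. Macrophage markers summed to 58.0, 80.2 and 33.6 CPM labelled off and 155, 77.1 and 101 CPM labelled on. All 8 macrophage markers tested had positive values (median 0.66), 0 of them with an unadjusted p under 0.05. The part of leukocyte RNA, macrophages included, in the class I result was not tested. Over the 16 other settings and left-out libraries the list median stayed between 0.60 and 0.96.

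Interferon-stimulated genes as a whole showed no common direction, with 11 of 23 positive (median −0.17) and 1 called higher, where 0.728% of all genes were. Oas2, an antiviral RNA sensor, was the member called, at 14.5, 26.2 and 13.3 CPM labelled off and 116, 37.9 and 51.2 CPM labelled on (1.87 ± 0.44, adjusted p = 0.0308). The call of Oas2 was lost without off m1, off m2, on m1 or on m3 (adjusted p 0.126, 0.0618, 0.11 and 0.126) and with the replicate block (adjusted p = 0.086). Its relative Oas1a gave 1.07 ± 0.20 without a call. Without off m1 the median of the list was 0.72, without on m2 0.32, without off m2 −0.46, and with the replicate block 0.05. Of 21 chemokines and cytokines, 12 were positive (median 0.24, but −0.21 without on m1, 0.0032 without off m1 and 0.66 without off m2), and Cxcl5 was called higher (0.728% of all genes). Cxcl5, a neutrophil attractant of epithelial cells, read 17.8, 48.6 and 52.3 CPM labelled off against 607, 69.8 and 379.5 CPM labelled on (3.14 ± 0.82, adjusted p = 0.0273). The call of Cxcl5 was lost without off m1, off m2, on m1 or on m3 (adjusted p 0.0996, 0.0582, 0.109 and 0.0884) and with the replicate block (adjusted p = 0.144). Copper and metal binding genes were positive in 6 of 7 cases (median 0.75, and 0.42 without on m1), with Cp called higher (0.728% of all genes). Cp, ceruloplasmin, read 142, 310.0 and 246 CPM labelled off against 607, 507 and 473 CPM labelled on (1.14 ± 0.28, adjusted p = 0.0372). The call of Cp was lost without off m1, off m2, on m1 or on m3 (adjusted p 0.117, 0.0656, 0.0959 and 0.169).

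In the remaining lists the 19-library fit and DESeq2 on the 6 libraries made few or no calls. Of 15 KLF factors 11 were negative (median −0.34), with Klf2 at 171, 82.0 and 74.8 CPM labelled off against 29.2, 65.5 and 25.5 CPM labelled on (−1.56 ± 0.43, adjusted p = 0.0722). DESeq2 called 1 KLF member lower, where it called 325 of 14305 genes tested lower. All 4 RUNX genes tested were negative (median −0.51), as were 13 of 15 RAS-MAPK output genes (median −0.39), where the transcription factor Etv4 read 106, 111 and 75.9 CPM against 64.0, 73.7 and 50.8 CPM (−0.70 ± 0.14, adjusted p = 0.0621). Cholesterol genes were negative in 17 of 20 cases (median −0.30), with Sqle, squalene epoxidase (−0.68 ± 0.20), and Insig1, a sterol sensor (−0.93 ± 0.30), uncalled. Values of p53 targets (11 of 18 positive, median 0.08), WNT antagonists and targets (6 of 12 positive, median 0.07) and CCN genes (4 of 5 negative, median −0.47) included 0 calls by either method, and 0 of their members had an unadjusted p under 0.05. The medians of the p53 and WNT lists turned to −0.10 and −0.41 without on m2, and that of the WNT list was −0.17 without the technical set and between 0.28 and 0.33 without off m2, off m3 or on m3. The KLF median was −0.04 without off m3, −0.03 without on m3 and −0.52 without off m2. The RUNX median was −0.79 without on m2, the RAS-MAPK median −0.23 without off m3 or on m3 and −0.26 without on m2, the CCN median −0.26 without off m1, −0.77 without on m1 and −1.02 without on m2, and the cholesterol median −0.49 and −0.55 without off m1 and on m1 and −0.17 and −0.16 without off m3 and on m3.

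Whether these differences were particular to the liver was asked by subtracting the label difference of another site from that of the liver within the 19-library fit. At an adjusted p under 0.05 and a fold above 2, 0 of 16907 genes differed between liver and lung (0%) and 0 between liver and pancreas (0%), with lowest adjusted p values of 0.11 and 0.128. Unadjusted p was under 0.05 for 455 genes higher and 667 lower in the liver contrast relative to the lung, and for 507 higher and 666 lower relative to the pancreas, and DESeq2 on the same 19 libraries called 18 and 43 genes. A p that misses the threshold does not show that the sites respond alike.

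Smad4 mRNA was the lower under the label on at every site. It averaged 111 ± 14.2 CPM labelled off and 18.5 ± 1.80 CPM labelled on in lung metastases of day 14 (SD, n = 4 and 4), 101 ± 7.14 and 21.9 ± 1.73 CPM in primary tumors of day 14 (n = 2 and 3), and 92.7 ± 11.6 and 15.1 ± 0.52 CPM in liver metastases of day 7 (n = 2 and 3). Gli2 averaged 0.73 ± 0.48 and 32.9 ± 11.97 CPM in the lung, 4.81 ± 0.62 and 28.2 ± 7.12 CPM in the pancreas and 2.91 ± 3.79 and 42.1 ± 4.69 CPM in the liver on day 7. Its level labelled on lay between 28.2 and 42.1 CPM on average at these sites, while the level labelled off was above the liver's in the pancreas, and the liver minus pancreas difference of 3.57 ± 0.58 had the adjusted p of 0.128.

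Ccbe1 averaged 19.8 ± 3.36 CPM labelled off and 4.65 ± 3.29 CPM labelled on in the lung and 13.4 ± 0.42 and 13.1 ± 3.97 CPM in the pancreas, against 28.4 ± 26.4 and 1.46 ± 0.19 CPM in the liver (liver minus pancreas −4.13 ± 1.00, adjusted p = 0.341). Inhba averaged 177 ± 42.0 and 135 ± 129.6 CPM in the lung and 192 ± 1.10 and 106 ± 14.4 CPM in the pancreas, where the liver libraries labelled on held 18.3 ± 1.05 CPM (liver minus lung −2.83 ± 0.90, adjusted p = 0.744). Anln averaged 82.8 ± 7.93 and 72.4 ± 8.40 CPM in the lung against 114 ± 27.5 and 51.2 ± 16.9 CPM in the liver (liver minus lung −0.97 ± 0.26, adjusted p = 0.744). In these genes the liver difference was numerically the larger, and the test across sites did not pass.

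The genes with the lowest p between liver and lung were, on the lower side, Cavin4, Gng11 and Mcub, and on the higher side Letm1, Adamtsl4 and Dennd3. Cavin4, a caveolar protein of muscle, read 1.55, 2.90 and 0.514 CPM in the liver libraries labelled off and 0.0569, 0.0358 and 0.108 CPM in those labelled on. All 3 of the latter lie under the level that 3 counts would give, so no fold is stated for Cavin4, whose liver minus lung contrast had the adjusted p of 0.11. Mcub, a subunit of the mitochondrial calcium uniporter, read 31.2, 18.2 and 10.3 CPM against 2.87, 4.73 and 3.89 CPM. In the lung Mcub averaged 7.81 ± 1.01 CPM labelled off and 6.93 ± 1.30 CPM labelled on (liver minus lung −2.21 ± 0.46, adjusted p = 0.744). Against the pancreas, Gli2, Nedd4l and Ctsz stood first on the higher side and Muc5ac, Akr1c19 and Cavin4 on the lower side, with adjusted p values no lower than that of Gli2. Akr1c19, an aldo-keto reductase, read 32.3, 48.9 and 53.8 CPM labelled off against 73.5, 84.2 and 101 CPM labelled on in the liver and averaged 3.30 ± 0.19 against 32.1 ± 8.26 CPM in the pancreas.

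**Figure D5:**
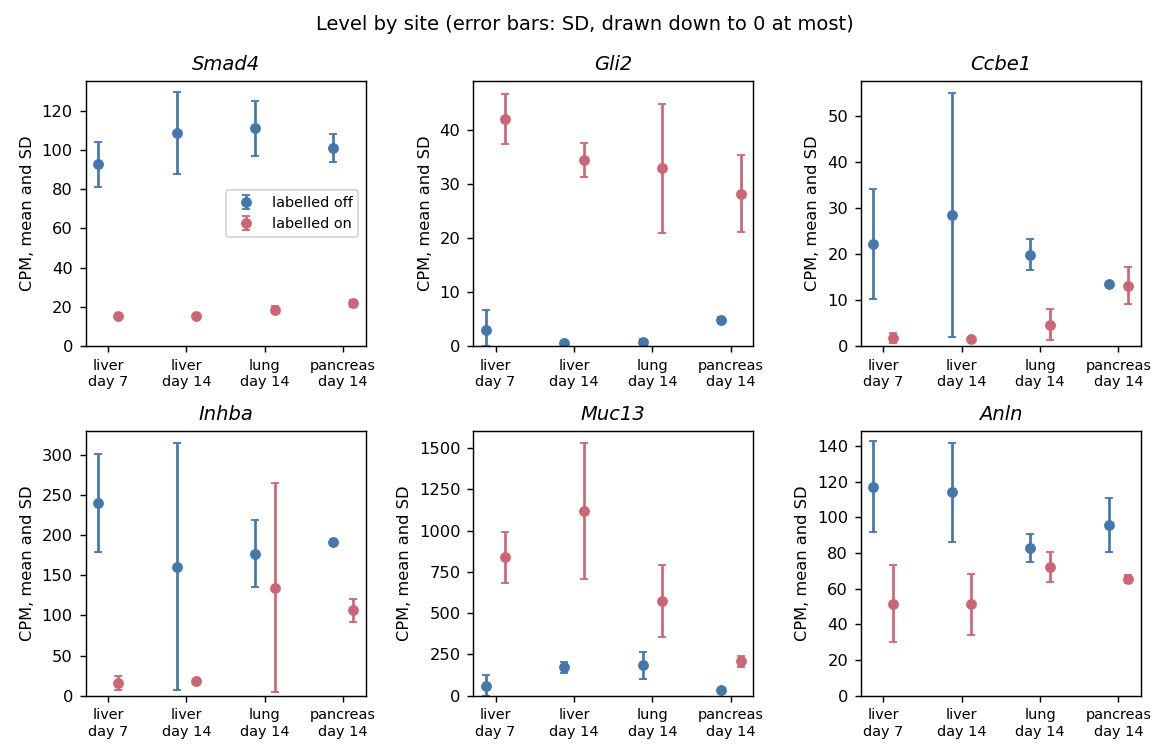
Mean CPM and SD of 6 genes by site and day, blue for labelled off and red for labelled on, with 2 and 3 libraries in the liver on day 7, 3 and 3 in liver metastases of day 14, 4 and 4 in the lung and 2 and 3 in the pancreas. Smad4 is the lower under the label on at all 4, while Inhba in the libraries labelled on averages 18.3 CPM in liver metastases of day 14 and 135 CPM in the lung.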

How the data were processed

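Gene counts of sorted tumor cells were used as the authors deposited them, 1 table of 53465 genes and 35 libraries of whole-number counts. Per the labels and the submitters' processing notes, 75-base single-end reads from poly(A)-selected RNA, made into libraries with a stranded mRNA kit, were checked with FastQC 0.11.5, trimmed with Trimmomatic 0.36, aligned to mm10 (GRCm38) with STAR 2.5.3a and counted with featureCounts 1.6.3. Whether counting used the strand is not given in the sources used here, so overlapping antisense genes may share reads. The table's other columns describe the genes, and 0 per-sample columns were left unused.

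The 6 liver day 14 libraries were filtered with filterByExpr, normalized by TMM and tested with edgeR 4.0.16 (R 4.3.3) by the robust quasi-likelihood test, with the technical set as covariate. Genes were called at a fold above 2 and a Benjamini-Hochberg adjusted p under 0.05 over all genes tested. SE is the fold change divided by the root of F, and CPM uses the library total. A count of 3 corresponds to 0.083 to 0.162 CPM, and this level covers counting error only. DESeq2 1.42.0 and other settings were run as alternatives. The scripts were tested on simulated counts.

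Members, lists and tests were chosen with earlier results of these data known. The named genes are Smad4, the fibrogenic and growth arrest lists, the 12 genes with the lowest p in each direction among those at 1 CPM or more whose groups do not overlap, the 2 lowest p in each direction of each other list, and the 3 lowest p of each contrast between organs. Of the list members only those with an unadjusted p under 0.05 were mainly described. Ltbp4, Fstl3, Vim, Cdh2, Loxl2, Cldn18, Gpc1, E2f8, H2-K1, Timp2, Krt19 and Cdh5 were added after their values were seen. Of 582 list members, 23 were not tested. Values of 1 fibrogenic gene are not reported here, though the counts and medians of its list include it.

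Deviations from the group means correlated at 0.133, 0.137 and 0.588 between libraries with the same mouse number (mice 1, 2 and 3), which met the preset rule for pairing. The crossed pairs of mice 1 and 2 correlated more, at 0.436 for off m1 with on m2 and 0.235 for off m2 with on m1. Only mouse 3, which is the second technical set, therefore stood out as a pair. The labels do not say what the number marks. Each library is taken as the sorted tumor cells of 1 mouse, all grown from KC-shSmad4 cells. The p values of the fit of the liver libraries alone measure the spread between these samples. The adjusted p values of the 19-library fit, which decide the calls, use a spread pooled with lung and pancreas libraries. They therefore do not measure the spread between the liver mice alone. The biological coefficient of variation was 0.362 in the liver libraries alone and 0.270 in the pooled fit.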

Additional observations from a re-analysis of the deposited data

How the results depend on the processing

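The 6-library fit called 0 genes higher and 0 lower, and did so also without the technical set, with DESeq2's size factors, with at least 10 counts in every library, without robust estimates, without a fold threshold, with the mouse number as a replicate block in place of the technical set (0 higher and 0 lower) and with each library left out (range 0 to 0). It called 216 higher and 325 lower with DESeq2, 137 and 202 with DESeq2 without the technical set, 97 and 132 without a filter on low counts, 123 and 248 in 1 fit of 19 libraries, and 168 and 280 in 1 fit of 35. The replicate block together with the technical set was not run, because mouse 3 is the second set. The 19-library counts of 123 and 248 became 67 and 149 without the set, 351 and 545 with DESeq2, 612 and 876 without a filter, 272 and 417 without a fold threshold, 50 and 130 with the replicate block, and 19 and 29 with 14 liver and lung libraries, alternatives chosen after seeing the data. Leaving out 1 liver library gave 24 to 581 higher and 73 to 693 lower, and of the 371 calls between 85 (without on m1) and 365 (without off m3) remained. The contrast between liver and lung gave 18 calls with DESeq2, 519 without a filter and 0 to 3 with 1 library left out (3 without on m2, 2 without off m3 and 2 without on m3), that between liver and pancreas 43, 576 and 0 to 1 (1 without off m3 and 1 without on m2), and 0 with the replicate block for both. The cause of these differences was not tested. Of 115 genes, 111 kept their direction in all alternatives, and 7 of 1836 pairs of gene and alternative reversed: with 1 library left out, Cdkn2c ranged from −0.43 to 0.0041 (without off m2), Id1 from −0.45 to 0.19 (without off m2, and positive also without off m3, on m2 or on m3), Id2 from −0.39 to 0.084 (without off m1) and Id3 from −1.23 to 0.024 (without off m2). Of 37 lists, 16 medians stayed within 1 SD. The median of all genes lay between −0.03 and 0.03. The libraries held 18491168 counts or more, with 3 mice per label, and the part of depth and of sample number in the calls was not tested.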
